A study of Mus musculus with 2 samples.

Results

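The T cell checkpoint receptors and their ligands are 10 genes of the 31053 in the count tables of a single-cell study of mouse tongue cancer, and they were chosen by name. The receptors are Pdcd1 (PD-1), Ctla4 (CTLA-4), Lag3, Havcr2 (TIM-3) and Tigit. The ligands are Cd274 (PD-L1) and Pdcd1lg2 (PD-L2), which bind PD-1, Cd80 and Cd86, which bind CTLA-4 and the costimulatory receptor CD28, and Lgals9 (galectin-9), a glycan-binding protein described as a ligand of TIM-3. The tumours arose in C57BL/6 wild-type mice given the carcinogen 4-nitroquinoline 1-oxide (4NQO), which both groups received. One group then received JQ1, which blocks the BET bromodomain proteins, over 10 days, and the other was its control. Each group is 1 library of 10x Genomics 3′ RNA, and the sources used here do not give the number of mice behind it. The JQ1 library held 99565417 UMIs (unique molecular identifiers, each counting 1 captured transcript) in 16233 cell barcodes, and the control library 118382532 UMIs in 9754 barcodes. After filtering, 14044 JQ1 cells with a median of 3879 UMIs and 8150 control cells with a median of 11302.5 UMIs remained, and the libraries shared 40 barcodes.

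Checkpoint receptors damp the response of T cells that have met antigen. PD-1 and CTLA-4 are induced on activation, regulatory T cells hold much CTLA-4, and several receptors together mark T cells under lasting stimulation in tumours. Their ligands lie on antigen-presenting cells, and PD-L1 also on tumour, stromal and endothelial cells, where interferon-gamma is its best known inducer.

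The genes lie on 5 chromosomes, and Cd274 and Pdcd1lg2 are neighbours. In GENCODE M21 (GRCm38), Cd274 spans chromosome 19:29367455-29388095 and Pdcd1lg2 19:29410919-29471161, both on the plus strand and 22824 bp apart. Ctla4 (1:60887000-60915832) and Pdcd1 (1:94038305-94052553) share chromosome 1, Havcr2 (11:46454935-46481255) and Lgals9 (11:78962974-78984946) chromosome 11, and Cd86 (16:36603869-36666081), Cd80 (16:38455561-38496335) and Tigit (16:43648867-43664146) chromosome 16. Lag3 lies at 6:124904361-124911705. All 10 are annotated as protein-coding. Cd274 and Pdcd1lg2 each overlap an annotated gene on the opposite strand, and Ctla4 overlaps Rpl18-ps1 on its own strand.

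Of the 10 genes, 8 matched a RefSeq promoter on GRCm38.p6, and Cd86 and Lag3 did not. A promoter is here the 250 bases before the RefSeq gene start and the 50 after it. The windows of Ctla4 (chr1:60908775-60909074) and Cd80 (chr16:38458683-38458982) do not hold the GENCODE starts given above. The promoters of Cd274 (chr19:29367188-29367487, plus strand) and Lgals9 (chr11:78984875-78985174, minus strand) are shown, a choice made after the motif search was seen. These are the ligands measured in endothelial cells, where both were higher in JQ1 than in control beyond counting error. Only Cd274 passed 1.5-fold there. Capitals mark matches to the interferon-stimulated response element, searched on both strands as 2 copies of GAAA with any 2 bases between them.
Cd274: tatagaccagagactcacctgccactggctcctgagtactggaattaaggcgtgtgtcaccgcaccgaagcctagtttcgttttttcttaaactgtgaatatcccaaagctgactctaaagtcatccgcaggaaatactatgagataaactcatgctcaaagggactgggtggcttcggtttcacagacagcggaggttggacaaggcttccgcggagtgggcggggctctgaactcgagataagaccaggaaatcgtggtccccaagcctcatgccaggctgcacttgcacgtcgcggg
Lgals9: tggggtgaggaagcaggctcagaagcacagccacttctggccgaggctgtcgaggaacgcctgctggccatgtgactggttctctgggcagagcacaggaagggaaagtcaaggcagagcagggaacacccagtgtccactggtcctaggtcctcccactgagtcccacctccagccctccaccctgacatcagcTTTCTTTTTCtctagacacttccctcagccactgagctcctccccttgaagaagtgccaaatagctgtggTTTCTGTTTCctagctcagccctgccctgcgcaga
The Lgals9 promoter held 2 matches, TTTCTTTTTC beginning 55 bases before the gene start and TTTCTGTTTC beginning 15 bases after it, both read on the opposite strand. The Cd274 window and the other 6 held none. Of 32851 RefSeq promoters of the same length, 3.44% held this motif. The gamma-activated site TTCNNNGAA (8.30% of all promoters) and the E-box CACGTG (7.15%) were in none of the 8. A match is a run of letters and no evidence of binding.

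Cells were sorted into classes by the marker genes of their clusters, so that each name below means resemblance to a marker list. The classes with at least 50 cells in each library and a part in this account were T cells (470 in JQ1, 253 in control), macrophages (206 and 89), dendritic cells (86 and 64), keratinocytes (1446 and 5263), fibroblasts (4683 and 869) and endothelial cells (2288 and 529). Gland, pericyte or smooth muscle and skeletal muscle cells are given only where a gene was measured. All 11 T cell markers were present in T cells of both libraries, and no defining marker of the other 5 classes was at 0 in its own class. Such presence does not test the names, because the clusters were named by marker lists. It also does not set classes apart, as no T cell marker was at 0 in keratinocytes of either library. Neutrophils could be named in JQ1 (587 cells) but in only 4 control cells. The clusters that held the control cells with neutrophil genes (543 cells, against 31 in JQ1) had a median depth under that of their library divided by 3 and no neutrophil marker among their 10 leading genes, so they stayed unnamed and are called low-depth immune cells here. Their depth is low only against the control library's median. One led by BC100530 had a median of 1633 UMIs and the JQ1 neutrophil cluster led by Cxcl3 1629.5 UMIs, so the name sets cells of like depth apart. With leading genes ranked by summed UMIs and a pseudocount of 10 CPM, chosen after seeing the data, the BC100530 cluster (340 control cells) would keep the neutrophil name and the one led by Ikbke (203 control cells) would not. Levels are UMIs per 1000000 UMIs of the class (CPM), summed over its cells, with 95% Poisson intervals. As each treatment has 1 library, no test or p-value between treatments exists. Intervals cover counting error only, and differences between mice cannot be told apart from JQ1. A gene was called higher or lower by size alone, by a ratio past 1.5-fold, provided that the libraries together gave 20 or more UMIs and the higher level reached 10 CPM.

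Over the 6 classes, 23 pairs of gene and class were measured at that level, of which 2 were higher and 2 lower in JQ1. Of all measured genes, between 5.79% (fibroblasts) and 18.3% (macrophages) were higher in JQ1 in these classes. Between 2.83% (fibroblasts) and 13.9% (dendritic cells) were lower. Cd274 was higher in endothelial cells and in dendritic cells, Pdcd1lg2 was lower in dendritic cells and Havcr2 was lower in macrophages. No receptor passed 1.5-fold in T cells, in either direction, in the sums over clustered T cells, but Lag3 lay at the threshold and other ways of processing moved Lag3, Ctla4, Pdcd1 or Havcr2 past it, as given below.

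**Figure D1:**
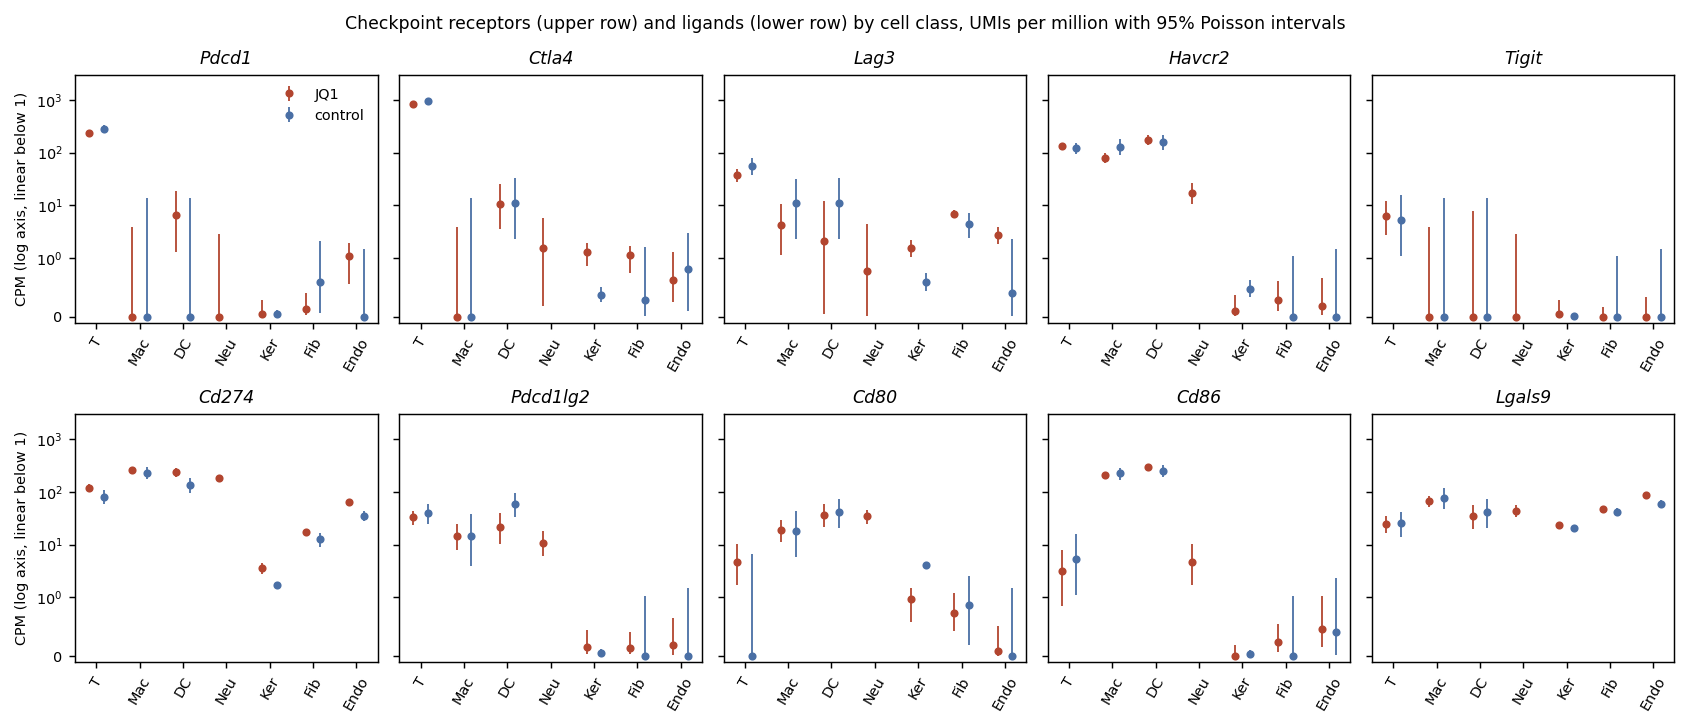
Levels of the 5 receptors (upper row) and 5 ligands (lower row) in CPM on a log axis that is linear below 1, by cell class, JQ1 left of control, with 95% Poisson intervals; points of under 20 cells are left out, which removes control neutrophils. Pdcd1 and Ctla4 stand above 200 CPM in T cells of both libraries and near 10 CPM or lower elsewhere, while Cd274 and Lgals9 are spread over all classes shown.

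Of the inhibitory receptors, Ctla4 and Pdcd1 lay mainly in T cells in both tumours, while Havcr2 and Lag3 were shared with other cells. Ctla4 was the most abundant in T cells. It had 827 CPM in JQ1 T cells (1065 UMIs) and 950 CPM in control T cells (530 UMIs), a ratio of 0.87 with a 95% interval of 0.78 to 0.97, and T cells held 88.5% of its UMIs in JQ1 and 85.9% in control. Pdcd1 had 239 CPM in JQ1 T cells (308 UMIs) and 283 CPM in control T cells (158 UMIs), a ratio of 0.84 (0.69 to 1.03), with 87.5% and 91.9% of its UMIs in T cells. The Ctla4 interval lies below 1 but the difference is far smaller than 1.5-fold. The Pdcd1 interval includes 1.

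Of the rarer receptors, Lag3, which binds MHC class II, had 37.3 CPM in JQ1 T cells (48 UMIs) and 55.6 CPM in control T cells (31 UMIs), a ratio of 0.67 (0.42 to 1.09). This lies just short of the fold, and its interval includes 1. Of 13 alternatives, 7 took it past the fold on the lower side, to 0.60 with thinning, while without the highest cell of each library it was 0.81. T cells held 14.95% of the Lag3 UMIs in JQ1 and 24.0% in control. Havcr2 had 132 CPM in JQ1 T cells (170 UMIs) and 122 CPM in control T cells (68 UMIs), a ratio of 1.08 (0.81 to 1.46). Its level in dendritic cells was at least as high, 174 CPM in JQ1 and 156 CPM in control, with intervals that overlap those of T cells. Tigit, the receptor that competes with the costimulatory Cd226 for the ligand Pvr, gave 8 UMIs in JQ1 T cells and 3 in control T cells, too few to compare. In T cells, 7 of the 10 genes were measured and 0 were called in either direction, where 17.6% of 7155 measured genes were higher in JQ1 and 8.37% lower. Their median log2 ratio was -0.20, against 0.07 for all measured genes.

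The direction of Pdcd1, Ctla4 and Lag3 in T cells turned when each cell was assigned by its own marker UMIs, without clusters. Havcr2 was on the higher side both ways. The ratios were then 2.40 for Pdcd1, 2.37 for Ctla4, 1.51 for Lag3 and 3.12 for Havcr2, all past the fold and higher in JQ1. The gated T cells held 1032 Ctla4 UMIs in JQ1 and 573 in control, against 1065 and 530 in clustered T cells, and 47 and 41 Lag3 UMIs, against 48 and 31. The total UMIs of the class were 1.08-fold those of the clustered class in JQ1 and 3.27-fold in control, and the 15 keratinocyte markers summed to 2183 CPM in these JQ1 cells and 11870 CPM in these control cells, against 460 and 1038 CPM in the clustered T cells. Their part in the ratios was not tested.

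Depth per cell differed between the libraries, and the share of T cells with a receptor UMI moved with it. Unlike the library medians, the T cell median was higher in JQ1, 2307 UMIs against 1875 UMIs in control. Unthinned, Ctla4 was seen in 55.5% of JQ1 T cells and 51.4% of control T cells, and Pdcd1 in 33.0% and 32.8%. With every cell thinned to 1000 UMIs, which left out 48 JQ1 and 40 control T cells, Ctla4 was seen in 40.5% of JQ1 cells (35.8% to 45.4%) and 44.6% of control cells (37.8% to 51.5%). Pdcd1 was then seen in 19.0% of JQ1 cells (15.3% to 23.0%) and 22.1% of control cells (16.7% to 28.2%). Havcr2 was seen in 9.24% and 11.3%, and Lag3 in 2.13% and 4.23%. Each thinned share was thus lower in JQ1 than in control and each pair of intervals overlapped. Summed over thinned cells, which weights each cell equally, the Ctla4 ratio was 0.62, past the fold.

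The number of receptors seen per cell was compared at the same depth. At 1000 UMIs, at least 1 of the 5 receptors was seen in 54.7% of JQ1 T cells (49.9% to 59.6%) and 60.6% of control T cells (53.7% to 67.2%), at least 2 in 15.4% and 20.2%, and at least 3 in 1.18% and 2.35%. In fibroblasts at least 1 was seen in 0.879% of 4550 JQ1 cells and 1.34% of 819 control cells, and Lag3 accounted for most of these, with 34 JQ1 and 9 control cells, so that fibroblasts are no receptor-free background. In endothelial cells at least 1 was seen in 0.332% of JQ1 cells and 0 of 487 control cells. The interval of that control share reaches up to 0.755%. The T cell shares are far above those of either class in both libraries. Among thinned T cells with a Pdcd1 UMI, 46.3% of 80 JQ1 cells and 51.1% of 47 control cells also had a Ctla4 UMI. Among those with a Havcr2 UMI, the shares with Ctla4 were 46.2% and 54.2%.

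Ctla4 separated the T cell subsets more widely than it separated the libraries. T cells were gated in order by Foxp3 (regulatory, 66 JQ1 and 29 control cells), by Cd8a or Cd8b1 without Cd4 (CD8, 39 and 21), by Il17a, Il17f or gamma-delta receptor genes (type 17 or gamma-delta, 124 and 73) and by Cd4 (63 and 29), which left 178 and 101 ungated. Ctla4 was highest in regulatory T cells, with 1754 CPM in JQ1 (363 UMIs) and 1914 CPM in control (140 UMIs), followed by CD4 cells with 870 and 1059 CPM. Type 17 or gamma-delta cells had 570 and 717 CPM, and CD8 cells had the lowest levels, 456 and 404 CPM. The order was the same in both libraries, although the intervals of CD8 and type 17 or gamma-delta cells overlap in JQ1 and those of CD4 and type 17 or gamma-delta cells in control.

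Pdcd1 followed another order. In JQ1 it was highest in CD8 cells at 373 CPM, next to type 17 or gamma-delta cells at 281 CPM and CD4 cells at 278 CPM, with regulatory cells lowest at 145 CPM. In control, CD4 cells led with 529 CPM (33 UMIs), above CD8 cells at 286 CPM, type 17 or gamma-delta cells at 263 CPM and regulatory cells at 246 CPM. The JQ1 CD4 level rests on 56 UMIs, and the CD4 intervals of the libraries do not overlap. Lag3 had 105 CPM in JQ1 CD8 cells and 84.1 CPM in control CD8 cells, and 89.5 and 273 CPM in CD4 cells. The control CD4 value rests on 17 UMIs, 8 of them from 1 cell. No ratio is given for regulatory, CD8 and CD4 cells, as each has under 50 control cells.

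**Figure D2:**
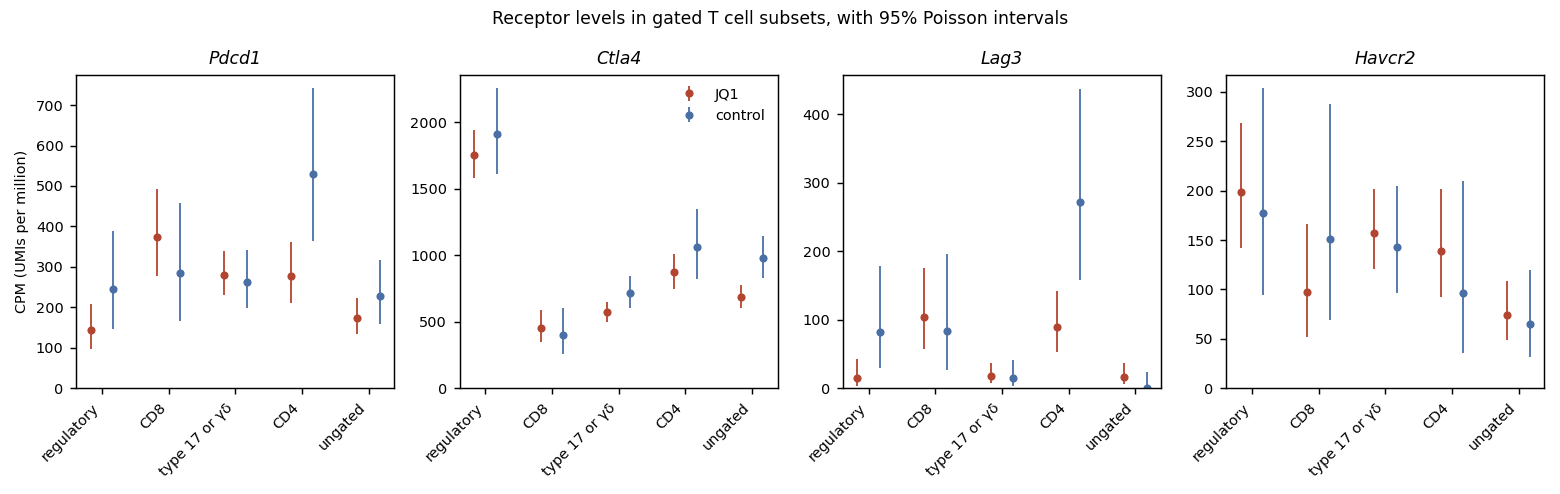
Levels of Pdcd1, Ctla4, Lag3 and Havcr2 in CPM in the 5 gated T cell subsets, JQ1 left of control, with 95% Poisson intervals. Ctla4 is highest in regulatory T cells of both libraries (1754 and 1914 CPM), and the control CD4 cells stand apart for Pdcd1 (529 CPM) and Lag3 (273 CPM).

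Among subsets large enough for a ratio, type 17 or gamma-delta cells had 4 of the 10 genes measured, with 0 higher and 1 lower (background 17.1% higher and 11.8% lower). The lower one was Cd274, at 32.9 CPM in JQ1 and 62.1 CPM in control with 13 UMIs each, a ratio of 0.53 (0.23 to 1.24). Pdcd1 in these cells was nearly level, 281 and 263 CPM (ratio 1.07). Ungated T cells had 5 genes measured, 1 higher and 0 lower (background 19% and 13.8%), and the higher one was again Cd274, at 182 CPM in JQ1 and 111 CPM in control, a ratio of 1.65 (0.95 to 3.0). Both Cd274 intervals include 1. Ctla4 in ungated cells had 687 CPM in JQ1 and 976 CPM in control, a ratio of 0.70 (0.57 to 0.87) that lies within the fold.

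Clusters of T cells, formed without gates, also held Ctla4 highest in the cluster with Foxp3. The cluster led by Foxp3 and Ikzf2 (112 JQ1 and 47 control cells) had 1647 CPM of Ctla4 in JQ1 (1508 to 1795) and 2858 CPM in control (2507 to 3244). Ctla4 was therefore lower in the JQ1 cells of this cluster beyond counting error, with no ratio because the control has under 50 cells. The cluster led by Xcl1, Ifng and Cd8a (226 and 122 cells) held 40 of the 48 Lag3 UMIs of JQ1 T cells and 28 of the 31 of control T cells, at 71.8 and 119 CPM. The cluster led by Il17a and Trdc (132 and 84 cells) was nearly level for Pdcd1, at 238 and 239 CPM, and for Ctla4, at 473 and 482 CPM.

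Beside these values, markers on the lists of other cell types were counted in T cells to different extents. The 6 NK cell markers summed to 239 CPM in JQ1 T cells and 44.8 CPM in control T cells, with Klra8 at 0 in both. In regulatory T cells, 580 CPM in JQ1 and 13.7 CPM in control, the other 5 were at 0 and the sum was Gzma alone, a granzyme that T cells also make. The 5 erythroid markers summed to 564 CPM and 0 CPM, the gland markers to 914 and 86.0 CPM, and the keratinocyte markers to 460 and 1038 CPM. Their part in the T cell values was not tested. Without JQ1 and control cells holding at least 2 haemoglobin UMIs, the T cell ratio of Ctla4 was 0.89.

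Cd274, the PD-1 ligand that interferon induces, had its highest level among the named classes in macrophages, in both libraries. Its level in JQ1 macrophages was 263 CPM (254 UMIs) and in control macrophages 230 CPM (63 UMIs), a ratio of 1.14 (0.87 to 1.53). In T cells it had 117 CPM in JQ1 and 80.7 CPM in control, a ratio of 1.45 (1.04 to 2.08) that stops short of the fold. Thinning turned that direction, to 0.93, and without keratin-rich cells and with gates on each cell the ratio was 1.89 and 3.87. Keratinocytes, the cancer's cell lineage, had 3.56 CPM in JQ1 (70 UMIs) and 1.68 CPM in control (170 UMIs), too low to be measured over the class. In 1 keratinocyte cluster, led by Csn1s1 and Krt42 (83 JQ1 and 1114 control cells), it was measured, with 13.3 CPM in JQ1 (21 UMIs) and 3.63 CPM in control (77 UMIs), a ratio of 3.66 (2.15 to 5.99). In order of level, JQ1 macrophages, dendritic cells and neutrophils (186 CPM) came first, with intervals that overlap between neighbours, then T cells, endothelial cells, fibroblasts and keratinocytes.

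In endothelial cells Cd274 was called higher in JQ1, with 64.7 CPM (714 UMIs) in JQ1 and 34.5 CPM (84 UMIs) in control, a ratio of 1.87 (1.49 to 2.38). Of the 10 genes, 2 were measured in this class, of which 1 was higher and 0 lower, where 8.73% of 8514 measured genes were higher and 3.02% lower. The difference was present in every endothelial cluster. In the cluster led by Selp and Sele, adhesion genes of venules, Cd274 had 65.7 CPM in JQ1 and 37.8 CPM in control (ratio 1.74, 1.25 to 2.46). In the cluster led by Gpihbp1, a gene of capillaries, it had 87.8 and 40.9 CPM (2.15, 1.49 to 3.21), and in the cluster led by Sema3g 41.0 and 23.5 CPM (1.75, 0.80 to 4.52). The cluster led by the lymphatic genes Ccl21a and Mmrn1 had 108 UMIs in 510 JQ1 cells (48.4 CPM) and 3 UMIs in 48 control cells (12.4 CPM).

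The endothelial UMIs were spread over many cells. A Cd274 UMI was seen in 335 JQ1 cells (14.6%) and 51 control cells (9.64%), and at 1000 UMIs in 5.36% of JQ1 cells (4.43% to 6.40%) and 3.90% of control cells (2.37% to 6.03%). The highest cell held 44 UMIs in JQ1 and 11 in control, and without it in each library the ratio was 2.02. Macrophage markers summed to 466 CPM in JQ1 endothelial cells and 422 CPM in control endothelial cells, and erythroid markers to 3274 and 9.86 CPM. Without cells that held haemoglobin UMIs, the ratio was 2.14.

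**Figure D3:**
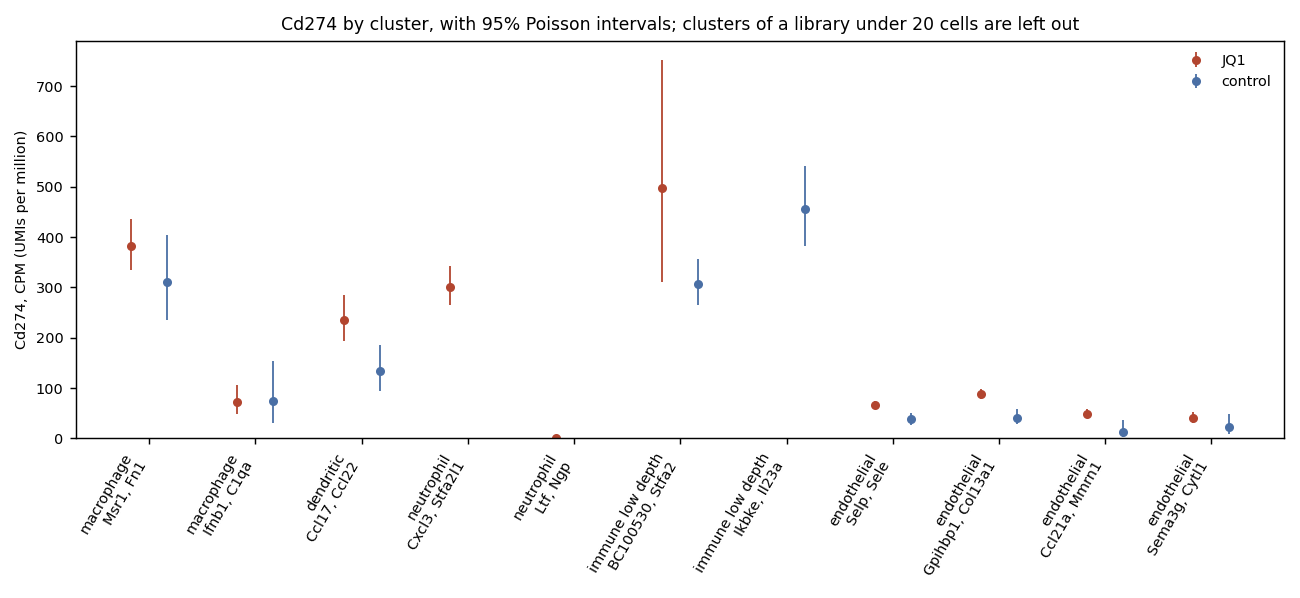
Cd274 in CPM by cluster of the macrophage, dendritic, neutrophil, low-depth immune and endothelial cells, each named by its 2 leading genes, JQ1 left of control, with 95% Poisson intervals; a library with under 20 cells in a cluster is left out. All 4 endothelial clusters have the JQ1 point above the control point, the macrophage clusters differ more from each other (383 and 72.7 CPM in JQ1) than between libraries, and the neutrophil cluster led by Ltf and Ngp lies at 0.

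Dendritic cells had 236 CPM of Cd274 in JQ1 (110 UMIs) and 134 CPM in control (36 UMIs), a ratio of 1.76 (1.20 to 2.64). This call rests on few cells. The JQ1 UMIs came from 24 cells, of which 1 held 31, and the control UMIs from 21 cells with at most 4 each. Without the highest cell of each library the ratio was 1.42, below the fold, and the mean of the CPM of each cell turned the direction, to 0.85. At 1000 UMIs a Cd274 UMI was seen in 11.7% of JQ1 cells and 14.9% of control cells. Pdcd1lg2, the second PD-1 ligand and typical of dendritic cells, went the other way in these cells, with 21.4 CPM in JQ1 (10 UMIs) and 59.5 CPM in control (16 UMIs). That is 2.78-fold lower in JQ1, with an interval of the ratio from 0.15 to 0.84, although classes from gates on each cell reversed it. T cells held more of its UMIs than any other named class, 42 in JQ1 (40% of all, 32.6 CPM) and 22 in control (27.5%, 39.4 CPM), a ratio of 0.83 (0.48 to 1.45). The low-depth immune cells held more than T cells in control, 28 UMIs (35%), and 0 in JQ1. Of the 6 genes measured in dendritic cells, 1 was higher and 1 lower (background 17.2% and 13.9%). Erythroid markers summed to 9121 CPM in JQ1 dendritic cells and 0 CPM in control dendritic cells, and their part was not tested.

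Macrophages had 5 genes measured, with 0 higher and 1 lower (background 18.3% and 11.8%). Havcr2, which myeloid cells also carry, had 79.9 CPM in JQ1 macrophages (77 UMIs) and 128 CPM in control macrophages (35 UMIs), 1.60-fold lower with an interval of the ratio from 0.41 to 0.96. At 1000 UMIs it was seen in 4.86% of JQ1 and 13.3% of control macrophages. The call ended with the stricter cell filter (ratio 0.67), with gates on each cell (0.77) and without cells that held haemoglobin UMIs (0.67). Erythroid markers summed to 8555 CPM in JQ1 macrophages and 3.65 CPM in control macrophages. The 2 macrophage clusters made up the class in different proportions: the cluster led by Msr1, Fn1 and Arg1 had 102 JQ1 and 66 control cells, and the cluster led by Ifnb1 and C1qa 104 and 23. The part of this mixture in the Havcr2 ratio was not tested. Cd274 separated the 2 clusters, with 383 CPM in JQ1 and 311 CPM in control in the Msr1 cluster and 72.7 and 74.5 CPM in the Ifnb1 cluster. Cd86 was nearer level, 211 CPM in JQ1 macrophages and 223 CPM in control macrophages over both (ratio 0.95).

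Neutrophil-like cells could not be compared as a class, because their clusters were nearly all of 1 library. The JQ1 cluster led by Cxcl3 and Stfa2l1 (473 cells) had 302 CPM of Cd274 (265 to 343), and the JQ1 cluster led by the granule genes Ltf, Ngp and Camp (114 cells) had 0 UMIs. In the low-depth clusters, the one led by BC100530 and Stfa2 had 497 CPM in 23 JQ1 cells (311 to 752) and 307 CPM in 340 control cells (264 to 356). The one led by Ikbke and Il23a had 457 CPM in 203 control cells (381 to 542) and 4 UMIs in 8 JQ1 cells. These levels are as high as those of macrophages. With all of these clusters counted as neutrophils, Cd274 would be 1.76-fold lower in JQ1, at 197 CPM (264 UMIs) against 346 CPM in control (312 UMIs), and without the granule-gene cluster the ratio would be 0.90. With and without that cluster, the ratios would be 0.34 and 0.53 for Pdcd1lg2 and 0.38 and 0.61 for Havcr2. They would be 0.75 and 1.11 for Cd80 and 1.57 and 1.37 for Lgals9.

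Of the CTLA-4 ligands, Cd86 was highest in dendritic cells and macrophages, while Cd80 was found in more kinds of cell. Cd86 had 289 CPM in JQ1 dendritic cells (135 UMIs) and 249 CPM in control dendritic cells (67 UMIs), a ratio of 1.16 (0.86 to 1.58), and macrophages and dendritic cells together held most of its UMIs in JQ1, 51.7% and 34.4%. In control the same classes held 26.2% and 28.8%, and 39.1% lay in unnamed immune clusters. Cd80 was rarer, with 36.5 CPM in JQ1 dendritic cells and 40.9 CPM in control dendritic cells, and 18.7 and 18.3 CPM in macrophages. Neutrophils held the largest share of Cd80 in JQ1, 31.9% of 138 UMIs, and their cluster led by Cxcl3 and Stfa2l1 had 51.98 CPM there. In control the low-depth clusters led by BC100530 and by Ikbke had 43.9 and 66.7 CPM, and keratinocytes held 82.5% of 510 UMIs. Neither ligand was called in any class. Cd80 was also found in keratinocytes, below the level for a call, at 0.967 CPM in JQ1 (19 UMIs) and 4.17 CPM in control (421 UMIs). At 1000 UMIs that is 0.073% of JQ1 and 0.535% of control keratinocytes. Of the 421 control UMIs, 266 lay in a cluster led by BC037156, Ppbp and Psca, which had 864 control cells and 5 JQ1 cells.

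Lgals9 was the most evenly spread ligand. Endothelial cells had the highest level of the stromal classes, 87.3 CPM in JQ1 (964 UMIs) and 58.7 CPM in control (143 UMIs), a ratio of 1.49 (1.25 to 1.79) that falls just short of the fold. At 1000 UMIs it was seen in 8.86% of JQ1 endothelial cells (7.68% to 10.2%) and 4.31% of control endothelial cells (2.69% to 6.52%). Summed over those thinned cells the ratio was 2.08. Macrophages had 66.4 and 76.7 CPM, fibroblasts 46.3 and 41.2 CPM, and keratinocytes 23.3 and 21.01 CPM (ratio 1.11), each within the fold. In gland cells Lgals9 had 13.4 CPM in JQ1 (333 UMIs) and 3.38 CPM in control (11 UMIs), a ratio of 3.97 (2.19 to 8.03), where 25.2% of measured genes were higher in JQ1 and 10.4% lower. The gland class lay mostly in different clusters. One led by Muc5b held 1180 JQ1 and 63 control cells, with 303 Lgals9 UMIs in JQ1 and 4 in control, a ratio of 3.37 (1.30 to 12.4). Another, led by Wfdc18, held 363 JQ1 and 145 control cells, and its ratio was 1.24 (0.54 to 3.36). In pericytes or smooth muscle cells it had 21.7 and 11.98 CPM, a ratio of 1.81 (0.94 to 3.91), where 16% were higher and 6.41% lower. Its clusters were also mixed differently: the one led by Rgs5 (511 JQ1 and 83 control cells) had a ratio of 1.35 (0.70 to 2.93), and the one led by Myh11 (303 and 88 cells) 12 UMIs in JQ1 and 0 in control. Erythroid markers summed to 4761 CPM in JQ1 pericytes or smooth muscle cells and 2.40 CPM in control ones, and their part was not tested.

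**Figure D4:**
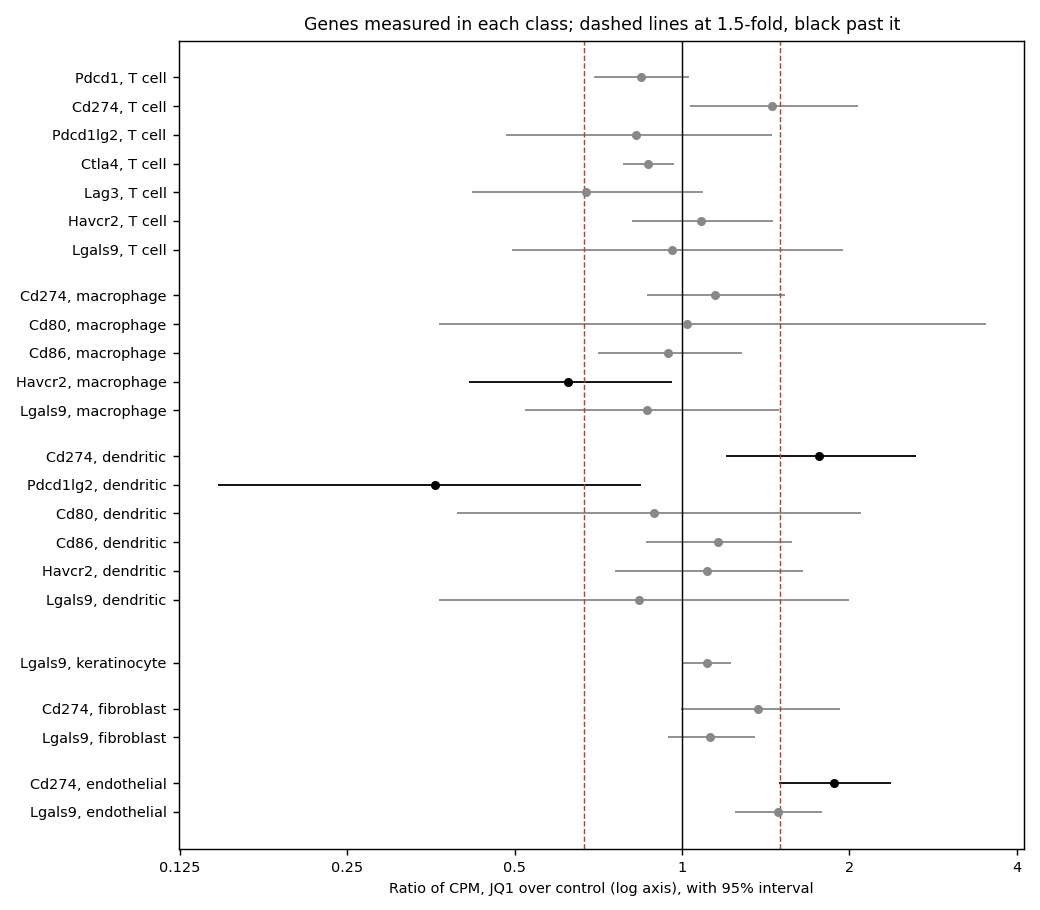
Ratio of CPM, JQ1 over control, on a log axis with 95% intervals, for each gene measured in each of the 6 classes; dashed lines mark 1.5-fold in either direction and black points lie past it. The 4 black points are Cd274 in endothelial cells (1.87) and dendritic cells (1.76), Havcr2 in macrophages (0.62) and Pdcd1lg2 in dendritic cells (0.36).

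In skeletal muscle cells 0 of the 10 genes were measured (background 24.6% and 16.4%). Fibroblasts had 2 genes measured, Cd274 and Lgals9, with 0 called (background 5.79% higher and 2.83% lower). Fibroblast Cd274 had 17.2 CPM in JQ1 (373 UMIs) and 12.6 CPM in control (43 UMIs), a ratio of 1.37 (0.998 to 1.93). Lag3 was also counted there, with 148 UMIs in 144 JQ1 cells (6.83 CPM) and 15 UMIs in control (4.38 CPM), under the level for a call. Keratinocytes had 1 gene measured, Lgals9, and 0 called (background 11.1% and 4.51%).

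The classes with the largest shares of Cd274 and Lgals9 UMIs differed between the libraries, whose mixtures of cells also differed. T cells held most UMIs of Pdcd1 (87.5% in JQ1, 91.9% in control) and of Ctla4 (88.5% and 85.9%) in both. The part of the mixture was not tested. Counted as UMIs, Cd274 came in JQ1 from endothelial cells (33.5% of 2131 UMIs), fibroblasts (17.5%), macrophages (11.9%) and neutrophils (11.2%). In control it came from low-depth immune cells (40.6% of 768 UMIs), keratinocytes (22.1%) and endothelial cells (10.9%). Lgals9 came from fibroblasts (31.9% of 3146 UMIs) and endothelial cells (30.6%) in JQ1, and from keratinocytes (84.4% of 2512 UMIs) in control. Havcr2 came from T cells for 43.6% of 390 UMIs in JQ1 and 24.8% of 274 in control. With 7 named classes weighted equally, neutrophils with their 4 control cells among them, T cells held 67.3% of Lag3 in JQ1 and 66.9% in control, against 14.95% and 24.0% as counted. Cell numbers and levels per cell are thus both part of the as-counted shares, and differences in dissociation between libraries cannot be told apart from differences in the tissue.

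**Figure D5:**
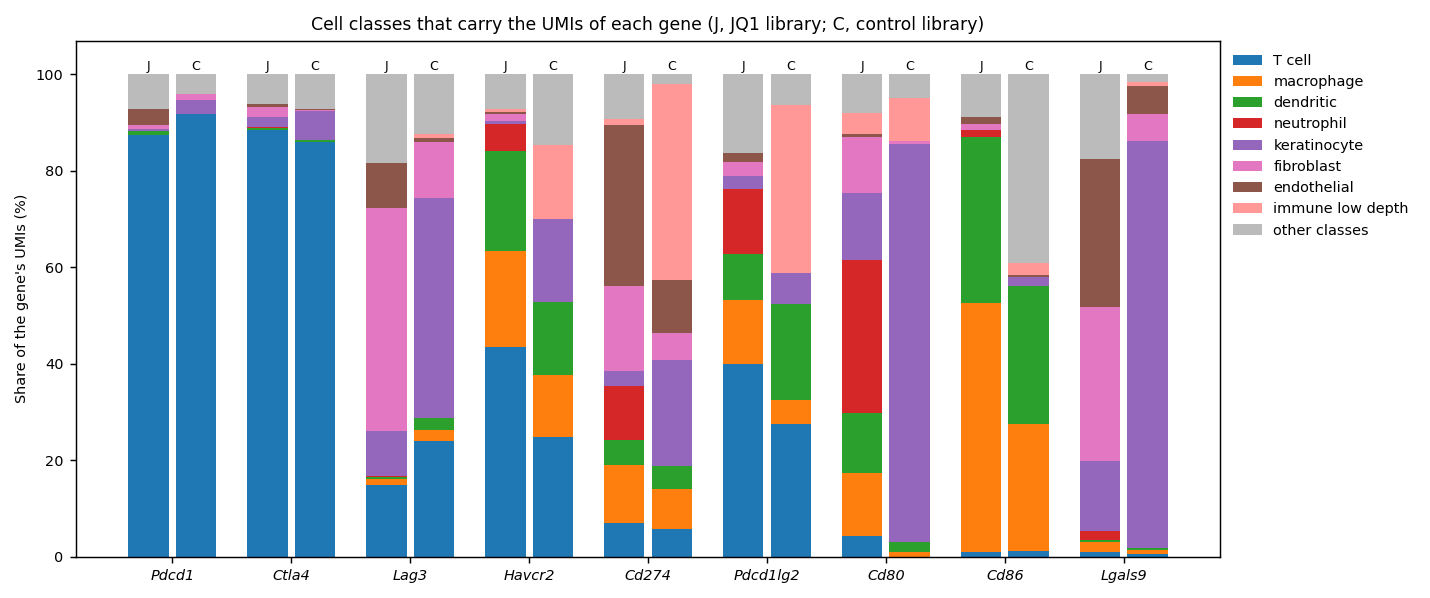
Share of each gene's UMIs in percent by cell class, as counted, JQ1 (J) left of control (C); Tigit, with 9 and 4 UMIs, is left out. T cells hold over 85% of Pdcd1 and Ctla4 in both libraries, while the main carrier of Lgals9 is fibroblasts in JQ1 (31.9%) and keratinocytes in control (84.4%).

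Around these genes, 47 others of the same pathways were counted in lists of inhibitory receptors, costimulatory receptors, B7 and related ligands, and regulators of PD-L1. In T cells 31 were measured, 6 higher and 3 lower in JQ1 (background 17.6% higher and 8.37% lower). None of the 8 costimulatory receptors was higher and 1 was lower: Cd226, which shares ligands with Tigit, had 34.9 CPM in JQ1 and 62.7 CPM in control, 1.80-fold lower. Cd28 (618 and 597 CPM) and Icos (873 and 855 CPM) were within the fold. Of 9 measured in the list of inhibitory receptors, 3 were higher and 2 lower. Cd160, a receptor for Tnfrsf14, had 10.9 CPM in JQ1 and 37.6 CPM in control, 3.46-fold lower. Klrg1 had 28.0 and 10.8 CPM (2.60-fold higher), and Tox, a transcription factor of exhausted T cells, had 85.4 and 52.0 CPM (1.64-fold higher). Nt5e (CD73), which makes adenosine, had 137 and 89.6 CPM in T cells (1.53-fold higher), and Nlrc5, an activator of MHC class I genes, 47.4 and 26.9 CPM (1.76-fold higher).

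The dendritic cells had 18 of the 47 measured, 5 higher and 2 lower (background 17.2% higher and 13.9% lower). Irf1, a transcription factor of the interferon response that acts on Cd274, was higher in JQ1, with 380 CPM in JQ1 and 194 CPM in control (1.96, 1.43 to 2.73). Cd40, the receptor through which helper T cells activate these cells, had 133 and 67.0 CPM (1.98-fold), Tnfsf9 (4-1BB ligand) 124 and 70.7 CPM (1.76-fold) and Tnfrsf18 34.3 and 14.9 CPM (2.30-fold). Entpd1 (CD39) had 30.02 and 52.1 CPM, 1.74-fold lower. Tnfrsf18 and Entpd1 rest on few UMIs here, and their counting intervals span both directions.

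Macrophages had 16 measured, 2 higher and 1 lower (background 18.3% higher and 11.8% lower). Entpd1, which breaks down extracellular ATP, had 73.7 CPM in JQ1 and 36.5 CPM in control (2.02-fold higher), and Cd244 20.8 and 7.31 CPM (2.84-fold higher, on 20 and 2 UMIs). Keratinocytes had 19 measured, 2 higher and 1 lower (background 11.1% higher and 4.51% lower). Nlrc5 had 12.4 CPM in JQ1 and 6.26 CPM in control (1.98-fold higher), and Nt5e 17.9 and 39.8 CPM (2.23-fold lower). Endothelial cells had 21 measured, 2 higher and 2 lower (background 8.73% and 3.02%), and fibroblasts 22, 1 higher and 1 lower (background 5.79% and 2.83%). All of these calls are by size alone and are read against the background shares given for each class.

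Across the 9 classes with at least 50 cells in each library, taken in both libraries (18 points), the gene most like each member was looked up among 14790 genes by Pearson correlation of log2(CPM + 10), as a description. The points share libraries and depth. Pdcd1 was most like Ikzf3 (r = 0.996), an Ikaros family factor of lymphocytes, and Ctla4 most like Cd28 (r = 0.995). Havcr2 was most like Myo1g (r = 0.998) and Cd86 most like Ncf1 (r = 0.994), a subunit of the phagocyte oxidase. Cd274 was most like Pik3r5 (r = 0.964), Pdcd1lg2 like Bin2 (r = 0.990), Cd80 like Hpgds (r = 0.976), Lag3 like B230217O12Rik (r = 0.956) and Lgals9, with the lowest value, like Zmiz1 (r = 0.896).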

How the data were processed

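Raw UMI counts per gene and barcode were deposited for 1 library per treatment. Cell Ranger 3.1.0, Seurat 4.0.0 and the build mm10 are listed, without roles, in the submitters' processing notes. The 10 genes, their lists and the comparisons were chosen with earlier results of these data known. Barcodes were kept from 200 genes up and below 20% of UMIs from mitochondria, which left 14468 JQ1 and 8269 control barcodes, and Scrublet calls in each library were removed (424 JQ1, 119 control). The libraries were clustered together (scanpy 1.11.5, 2000 variable genes without the 10 members, 30 components, 15 neighbours, Leiden 1.0), and immune clusters once more alone.

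Clusters were named where at least 3 markers stood at 2-fold or more of the median cluster in at least 10% of cells, taking the class with most markers among the 10 leading genes; this ranking was chosen after the leading genes were seen. Clusters under their library's median depth divided by 3, with no own marker among the 10 leading genes, stayed unnamed; this rule was applied after values had been seen. UMIs were summed per class; ratios of CPM carry exact conditional 95% intervals, and shares Clopper-Pearson intervals. In ratios, a count of 0 is taken as 3 counts. PCR was corrected by UMIs, so intervals cover counting error only. The ratio procedure was tested on simulated data. The promoters shown were chosen after the motif search was seen. Named pathway genes are those past 1.5-fold, at most 6 per class by the interval bound nearest to 1, in T cells, macrophages, dendritic cells and keratinocytes; 1 such gene is counted but not reported here. Gene positions are from GENCODE M21, which held 30934 of 31053 gene IDs.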

Additional observations from a re-analysis of the deposited data

How the results depend on the processing

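No paired analysis was possible because the labels give no replicate numbers and each treatment has 1 library; for the same reason no replicate could be left out. The 23 log2 ratios were recomputed under 13 alternatives, of which leaving out the highest cell and leaving out cells with haemoglobin UMIs were added after seeing the data, as were naming the low-depth clusters neutrophils and ranking their leading genes by summed UMIs. Of 269 values, 242 stayed within the counting interval of the reported one, 25 moved and 2 reversed; classes from marker gates on each cell account for 13 of these. Dendritic cells had under 50 cells in a library under the stricter cell filter, thinning, and without haemoglobin cells, and without keratin-rich cells 4 of the 6 classes remained.

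The count of gene and class pairs higher in JQ1 was 2, and shares over all genes were not computed for the alternatives. It was 15 with gates on each cell, 9 with no filter on low values and 4 without keratin-rich cells. It was 1 with the members among the variable genes and 0 at a fold of 2. The count lower was 2, against 6 with no filter on low values, 4 each with no cell filter, with doublet calls kept, with gates on each cell and with thinning, and 1 each with the stricter cell filter, without keratin-rich cells, without the highest cell and at a fold of 2.

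On the log2 scale, with gates on each cell, Pdcd1 in T cells was 1.26 (reported -0.24), Ctla4 in T cells 1.24 (-0.20), Cd274 in macrophages -0.31 (0.20), Cd274 in dendritic cells 2.56 (0.82) and Pdcd1lg2 in dendritic cells 1.40 (-1.47, reversed). Thinning gave -0.68 for Ctla4 in T cells and -0.24 for Cd274 in macrophages. The mean of the CPM of each cell gave -0.42 for Ctla4 in T cells and -0.23 for Cd274 in dendritic cells (reversed). Cd274 in dendritic cells was 1.46 with no cell filter and 1.54 at clustering resolution 2. Gated T cells, macrophages and dendritic cells held more UMIs in total and higher keratinocyte marker CPM than the clustered ones in both libraries. The cause of these shifts was not tested. Cd274 in endothelial cells (0.91) kept its direction and stayed past 1.5-fold under all 13 alternatives, from a ratio of 1.51 with thinning to 2.28 with gates on each cell. Size factors shift keratinocyte log2 ratios by 0.15, the median over all genes there, and the other classes by at most 0.08. Of 44 shares at other depths, 18 moved. Depth limits Tigit, and Lag3 in every subset.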

Other observations

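Several small or unnamed groups of cells carried checkpoint genes. An unnamed cluster led by Cd207 (langerin) and Mfge8 and rich in keratins had 9 JQ1 and 31 control cells. Its control cells had 302 CPM of Cd86 (91 UMIs), 123 CPM of Havcr2 (37 UMIs) and 83.1 CPM of Cd80 (25 UMIs), while the 9 JQ1 cells gave 2, 2 and 1 UMIs. It holds most of the control Cd86 that lies outside named classes. Ctla4 had 22 UMIs in its JQ1 cells and 14 in its control cells.

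Mast cells had 8 UMIs of Pdcd1lg2 in 12 JQ1 cells (305 CPM) and 3 UMIs in 15 control cells (118 CPM). JQ1 B cells (26 cells) had 10 UMIs of Cd86 (253 CPM), and the control library had 2 B cells. Of the 26 keratinocyte Ctla4 UMIs in JQ1, 15 lay in 1 cell.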
